A study of Mus musculus with 6 samples.

Results

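The 41 genes described here encode the DNA replication and S phase machinery: the origin licensing factors, the replicative helicase and its activators, the polymerases, the sliding clamp with its loader, the enzymes of nucleotide supply, and CAF-1, Slbp and E2f1. They were selected by gene symbol, and all 41 were found among the 24479 gene rows of the array table, of which 23837 could be named and were tested. RNA came from primordial germ cells (PGCs), the precursors of sperm and eggs, of male mouse embryos at E13.5. There were 3 samples labelled Fancg-/- (og2.fvb.fancg -/-) and 3 WT samples (og2.fvb.fancg +/+), each of 10000 sorted PGCs pooled from at least 5 embryos and hybridised to an Affymetrix Mouse Gene 2.0 ST array. Fancg encodes a subunit of the Fanconi anemia core complex, which acts in the repair of DNA crosslinks and in the protection of stalled replication forks. The mutation is present in every cell of the embryo, with a Pgk-hygromycin cassette in the mutant allele. Both groups also carried the OG2 transgene, a reporter that expresses EGFP from the Oct3/4 distal enhancer, and cells were sorted on this fluorescence. The study examined S phase in Fancg-/- PGCs by BrdU incorporation, at earlier embryonic stages than the one sampled here, and reported a small decrease. At E13.5 it measured the DNA content of PGCs and a marker of mitosis. There it reported no G2/M blockade and no change in the share of PGCs with the marker. The comparison here asks whether RNA levels of the replication machinery differ between the genotypes at E13.5.

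Replication origins are prepared in G1, when the origin recognition complex (ORC), together with Cdc6 and Cdt1, loads the ring of MCM proteins onto DNA; geminin blocks Cdt1 after S phase has begun, so that an origin is licensed once per cycle. In S phase, the kinase Cdc7, Cdc45 and the GINS complex turn the MCM ring into an active helicase, polymerases alpha, delta and epsilon copy the DNA behind it, and Pcna, loaded by replication factor C, holds the polymerases in place. Many of the genes are targets of E2F transcription factors. Male germ cells of the mouse leave the cell cycle and enter mitotic arrest in the days around the stage sampled.

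The deposited values are log2 signals, on which a difference of 1 is a 2-fold change. Signals of different genes come from different probes, so that levels are compared between samples and not between genes. For marker lists, sums of the linear signal over genes are also given, in which the brightest genes weigh most. The targeted gene, Fancg, had log2 signals of 6.38, 6.65 and 6.87 in the samples labelled Fancg-/-, against 6.07, 5.95 and 6.37 in the WT samples. The log2 difference was 0.51 (standard error 0.16, adjusted p = 0.275 from limma), so that the signal was not lower in the labelled samples. The sources used here do not say whether the Fancg probes lie inside or outside the deleted sequence, and this value does not check the labels. Each direction below rests on them. The median log2 signal per array lay between 4.68 and 4.75, and no array was a copy of another. The labelled cell type was read from 16 germ cell markers, with differences of -1.90 to 0.56 and a median of 0.04. The defining markers Pou5f1, Ddx4 and Dazl had mean log2 signals of 9.60, 10.26 and 11.68 in Fancg-/- samples and of 9.63, 10.27 and 11.78 in WT samples.

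No replication gene differed between the groups after adjustment for all genes tested. The number called at an adjusted p under 0.05 by limma was 0 of 41, where the share over all 23837 named genes was 0%; at an unadjusted p under 0.05 there were 2956 genes in all by limma and 2408 by the methods' t-test. The smallest adjusted p among the members was 0.193. At an unadjusted p under 0.05, Cdt1, Orc5, Cdc6, Orc1, Rrm2 and E2f1 had higher signals in Fancg-/- PGCs. These were 6 of 41 members (14.6%), where 6.23% of all genes were higher at that p. Pole, the catalytic subunit of polymerase epsilon, was the 1 member with a lower signal at that p (2.44%), where 6.17% of all genes were lower. All 41 members were in the brighter 50% of genes by mean signal. In a fit of those 11918 genes alone, 1061 were higher and 1091 lower at that p. Of the members, 7 were higher and 2 lower in that fit. The mean level of the Sertoli, Leydig and stroma marker lists was lower in all Fancg-/- samples than in any WT sample. Of these lists, only the Leydig list did not overlap between the groups on its own. With the mean level as a covariate in the fit, 1 member had an unadjusted p under 0.05. The 3 Fancg-/- values lay above all 3 WT values for 6 members (9.45% of all genes) and below them for 3 members (8.45% of all genes). Together these were 9 of 41, where the groups did not overlap for 17.9% of all genes, and for 32 members they overlapped. With 3 samples against 3, an exact two-sided permutation test of a single gene cannot give a p below 0.1.

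The differences were small throughout. Over the 41 members they had a median of 0.04 on the log2 scale, against 0.01 over all genes, and ran from -0.33 for Pole to 0.43 for Rrm2. There were 24 members with a difference above 0 (52.9% of all genes) and 17 with a difference below 0. For all 41 members the 95% interval of the difference, as limma gave it, lay within 1 log2 unit of 0, as it did for 97.3% of all genes. For 34 of 41 (82.9%) it lay within 0.5 log2 units, against 72.1% of all genes. The latter share includes the dimmer 50% of genes, which held no member. The number of arrays limits the precision.

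**Figure D1:**
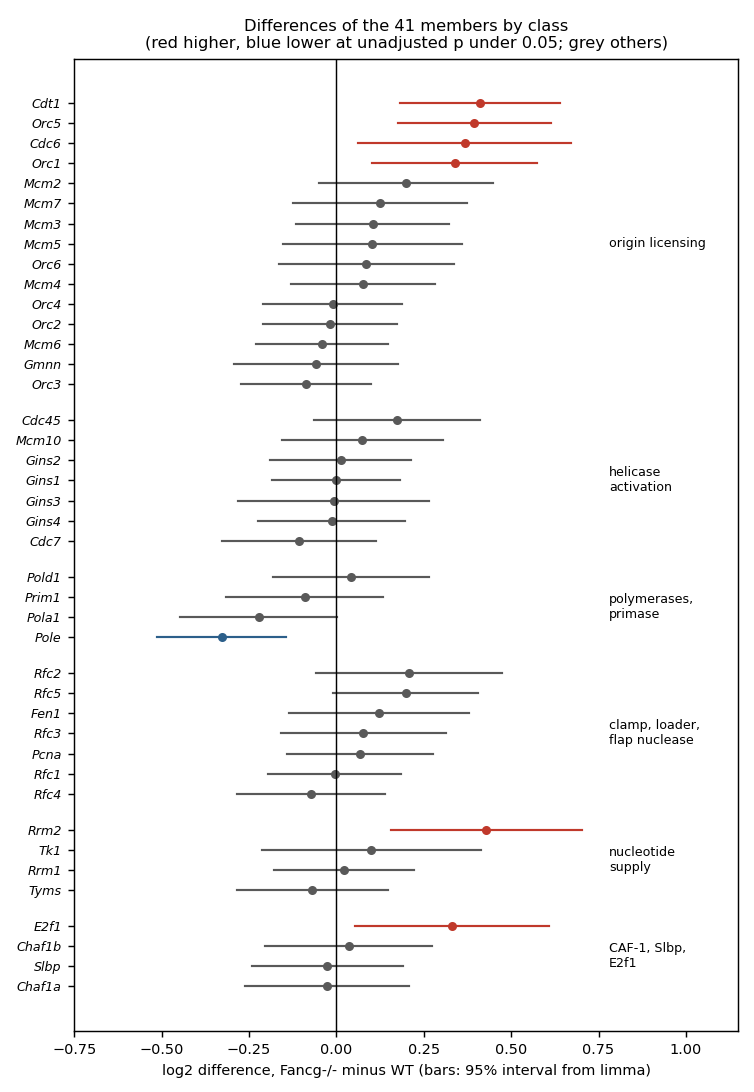
Log2 difference between 3 Fancg-/- and 3 WT samples for each of the 41 members (horizontal axis), ordered within 6 classes down the page; points are limma estimates and bars their 95% intervals. Cdt1, Orc5, Cdc6, Orc1, Rrm2 and E2f1 (red) lie to the right of 0 and Pole (blue) to the left, while the intervals of the other 34 members (grey) include 0.

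Origin licensing held 4 of the 6 members that were higher at an unadjusted p under 0.05, out of 15 genes in the class. These were 26.7% of the class, against 6.23% of all genes. In the fit of the brighter 50% of genes, which hold every member, 1061 of 11918 were higher at that p. Of the class, 3 of 15 were higher with groups that did not overlap (9.45% of all genes). The class median was 0.10, with 10 genes above 0 and 5 below. It was 0.04 without WT replicate 2 and 0.16 without Fancg-/- replicate 1. With the mean level of the Sertoli, Leydig and stroma lists as a covariate it was -0.01. Cdt1, which brings the MCM ring to ORC, had log2 signals of 8.26, 8.29 and 8.50 in Fancg-/- samples and of 8.01, 7.88 and 7.94 in WT samples. All Fancg-/- values were above all WT values, and the difference was 0.41 (1.33-fold, 95% interval 0.18 to 0.64, adjusted p = 0.195 from limma). Geminin (Gmnn), the inhibitor of Cdt1, had a difference of -0.06 with overlapping groups.

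Within ORC, the differences ran from -0.09 for Orc3 to 0.39 for Orc5. Orc5 had log2 signals of 7.92, 7.88 and 7.82 in Fancg-/- samples, against 7.54, 7.35 and 7.55 in WT samples. Its difference of 0.39 (1.31-fold, 95% interval 0.18 to 0.61) had the smallest adjusted p of all members, 0.193 from limma. Orc1, the largest ORC subunit and an ATPase, had 7.999, 8.15 and 7.95 in Fancg-/- samples and 7.83, 7.60 and 7.67 in WT samples. The groups did not overlap, and the difference was 0.34 (1.26-fold, 95% interval 0.10 to 0.57, adjusted p = 0.265 from limma). The other ORC subunits lay closer to 0. Orc4 had 8.31, 8.38 and 8.46 in Fancg-/- samples and 8.45, 8.36 and 8.38 in WT samples, a difference of -0.01. Orc2 had a difference of -0.02 and Orc6 one of 0.09. Orc3 was lower in each Fancg-/- sample than in any WT sample, by a mean of only 0.09 on the log2 scale (9.67 ± 0.03 in Fancg-/- and 9.76 ± 0.03 in WT, SD, n = 3 each).

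Cdc6, the ATPase that joins ORC before MCM loading, had log2 signals of 7.28, 7.58 and 7.54 in Fancg-/- samples, against 7.33, 6.95 and 7.03 in WT samples. Here 1 Fancg-/- sample (7.28) lay below the highest WT sample (7.33), so that the groups overlapped despite a difference of 0.37 (1.29-fold, 95% interval 0.06 to 0.67, adjusted p = 0.332 from limma). The 6 genes of the MCM ring (Mcm2 to Mcm7), the core of the replicative helicase, had smaller differences. They ran from -0.04 for Mcm6 to 0.20 for Mcm2, the groups overlapped for each, and no 95% interval of the 6 reached below -0.23 or above 0.45. Mcm7 and Mcm3 had differences of 0.12 and 0.10, Mcm5 of 0.10 and Mcm4 of 0.08.

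**Figure D2:**
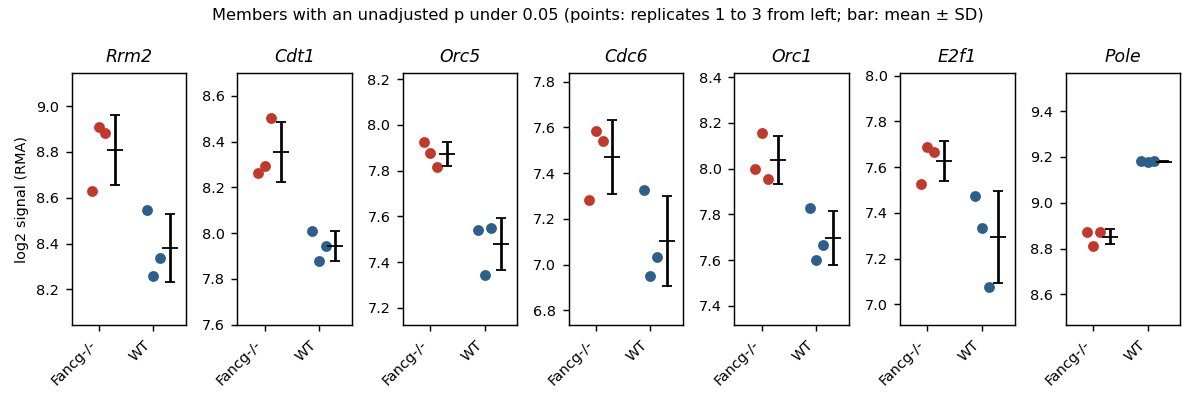
Log2 signal in each sample (points, replicates 1 to 3 from the left) with the group mean ± SD beside it, for the 7 members with an unadjusted p under 0.05; Fancg-/- is on the left and WT on the right of each panel, and each panel spans 1.1 log2 units around its own gene. The groups do not overlap except for Cdc6, and the 3 WT values of Pole, all at 9.18, lie close together.

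The promoters of the members were read for E2F words, which the choice of genes did not use. Windows of 250 bases before to 50 bases after the start of transcription, from RefSeq on GRCm38.p6, were found for 34 of the 41 genes. They were searched on both strands for the E2F words TTTCCCGC, TTTCGCGC, TTTGCCGC and TTTGGCGC. A word was found for 12 of 34 members (35.3%), against 2.60% of the 27025 genes with a window; over windows, it was 12 of 40 against 2.26% of 32851. By class these were 8 of 13 licensing genes, 2 of 3 polymerase genes, 1 of 4 helicase activation genes and 1 of 6 clamp genes, with 0 of 4 in each of the nucleotide supply and CAF-1, Slbp and E2f1 classes. The word CCAAT was found for 61.8% of members and 41.1% of the 27025 genes. The words TTTGAA or TTCGAA of the cell cycle homology region were found for 20.6% of members and 21.7% of the 27025 genes. Of the 27025, 17724 are named genes of the array table. Among these, the shares were 3.27% for the E2F words, 41.9% for CCAAT and 19.5% for the cell cycle homology words. The words can overlap each other. A match describes the letters only, and no match says only that these letters are not in the window. The stretches below are shown because E2F words stand in promoters of members that differed at an unadjusted p under 0.05 (Orc1, Cdc6) and of members that did not (Mcm5, Mcm6, Pola1). They are written 5′ to 3′ on the strand of the gene, with the E2F words in capitals and up to 30 bases on each side. The Orc1 stretch is chr4:108579397-108579453 on the plus strand, with the word 20 to 27 bases before the start. The Cdc6 stretch is chr11:98907983-98908050 on the plus strand, with the word 131 to 138 bases before the start. The Mcm5 stretch is chr8:75109326-75109397 on the plus strand, where 2 words overlap. The Mcm6 stretch is chr1:128359715-128359845 on the minus strand, with 3 words. The Pola1 stretch is chrX:93632256-93632323 on the minus strand.
Orc1: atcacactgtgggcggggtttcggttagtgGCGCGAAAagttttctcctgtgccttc
Cdc6: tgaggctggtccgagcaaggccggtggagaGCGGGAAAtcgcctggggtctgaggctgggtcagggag
Mcm5: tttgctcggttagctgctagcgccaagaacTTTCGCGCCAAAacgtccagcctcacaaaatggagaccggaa
Mcm6: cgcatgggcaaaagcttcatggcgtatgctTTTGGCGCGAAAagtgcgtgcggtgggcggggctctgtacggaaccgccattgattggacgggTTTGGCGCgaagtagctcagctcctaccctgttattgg
Pola1: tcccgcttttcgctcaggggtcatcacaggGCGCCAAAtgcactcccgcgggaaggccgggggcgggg

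Of the members that differed at an unadjusted p under 0.05, Orc1, Cdc6 and Cdt1 had an E2F word in the window, while Orc5, Rrm2 and E2f1 had none and Pole was not in the table. Mcm6, with 3 words, had a difference of -0.04, and Mcm5, with 2, one of 0.10.

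The genes of helicase activation showed no difference at an unadjusted p under 0.05, and their class median was -0.00 over 7 genes. Cdc45, which joins the MCM ring to make the active helicase, had the largest difference of the class. Its log2 signals were 9.19, 9.40 and 9.32 in Fancg-/- samples and 9.27, 9.04 and 9.07 in WT samples, a difference of 0.17 (95% interval -0.06 to 0.41, adjusted p = 0.546 from limma) with overlapping groups. The 4 GINS genes, whose products form 1 complex at the fork, were all between -0.01 and 0.01. Gins1 had 8.54, 8.57 and 8.52 in Fancg-/- samples and 8.56, 8.54 and 8.54 in WT samples, and its 95% interval of -0.18 to 0.18 bounds the difference closely. The kinase gene Cdc7 had a difference of -0.11, and Mcm10, which takes part in helicase activation, one of 0.07. The groups overlapped for every gene of this class.

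The polymerase and primase genes were the class with the lowest median, -0.16 over 4 genes. Pole, which copies the leading strand, had log2 signals of 8.87, 8.81 and 8.87 in Fancg-/- samples, against 9.18, 9.18 and 9.18 in WT samples. All Fancg-/- values were below all WT values, and the difference was -0.33 (0.796-fold, 95% interval -0.51 to -0.14, adjusted p = 0.195 from limma). Pola1, the catalytic subunit of polymerase alpha, had 7.87, 8.02 and 7.93 in Fancg-/- samples and 8.26, 8.20 and 8.04 in WT samples. These groups also did not overlap, but 8.02 in 1 Fancg-/- sample lay close to 8.04 in 1 WT sample, and the difference of -0.22 had a 95% interval of -0.45 to 0.00. Prim1, the small primase subunit, had a difference of -0.09. Pold1, the catalytic subunit of polymerase delta, had 8.39, 8.26 and 8.19 in Fancg-/- samples and 8.33, 8.23 and 8.15 in WT samples, a difference of 0.04 with overlapping groups.

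Among the clamp, clamp loader and flap nuclease genes, 5 of 7 had a difference above 0, the class median was 0.08, and none had an unadjusted p under 0.05 by limma. Rfc5, a small subunit of the clamp loader, was higher in each Fancg-/- sample (9.15, 9.35 and 9.27) than in any WT sample (9.03, 9.10 and 9.05), with a difference of 0.20 and a 95% interval of -0.01 to 0.41. Rfc2 had 7.51, 7.81 and 7.72 in Fancg-/- samples and 7.57, 7.32 and 7.53 in WT samples, a difference of 0.21 with overlapping groups. Rfc1, the large subunit, had 8.81, 8.80 and 8.71 in Fancg-/- samples and 8.78, 8.76 and 8.80 in WT samples, a difference of -0.00 (95% interval -0.20 to 0.19). Rfc3 and Rfc4 had differences of 0.08 and -0.07. The sliding clamp gene Pcna had a difference of 0.07 (95% interval -0.14 to 0.28), and Fen1, the nuclease that trims Okazaki fragments, one of 0.12.

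In nucleotide supply, Rrm2 had the largest difference of all 41 members, and its partner Rrm1 one near 0. Ribonucleotide reductase makes deoxyribonucleotides from ribonucleotides, and Rrm2 is its small subunit, whose level is tied to S phase. Rrm2 had log2 signals of 8.63, 8.91 and 8.88 in Fancg-/- samples and of 8.54, 8.26 and 8.34 in WT samples. The groups did not overlap, and the difference was 0.43 (1.35-fold, 95% interval 0.15 to 0.70, adjusted p = 0.227 from limma). Rrm1, the large subunit, had 9.19, 9.22 and 9.24 in Fancg-/- samples and 9.19, 9.12 and 9.29 in WT samples, a difference of 0.02 (95% interval -0.18 to 0.22). Thymidylate synthase (Tyms) had a difference of -0.07 and thymidine kinase 1 (Tk1) one of 0.10, both with overlapping groups.

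E2f1, a transcription factor that activates many replication genes at the start of S phase, had log2 signals of 7.53, 7.69 and 7.66 in Fancg-/- samples and of 7.47, 7.33 and 7.08 in WT samples. The lowest Fancg-/- value (7.53) was just above the highest WT value (7.47), and the difference was 0.33 (1.26-fold, 95% interval 0.05 to 0.61, adjusted p = 0.334 from limma). Slbp, which binds the stem-loop of histone mRNAs, had 9.86, 9.84 and 9.65 in Fancg-/- samples and 9.84, 9.78 and 9.82 in WT samples, a difference of -0.03. The subunits of CAF-1, the histone chaperone that works behind the fork, had differences of -0.03 (Chaf1a) and 0.04 (Chaf1b).

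Complexes were also read with their subunits outside the 41 genes. The subunits of polymerase epsilon spanned 0.61 log2 units and those of ribonucleotide reductase 0.62, against 0.06 to 0.48 in the other 12 groups. Pole2 had a difference of -0.22 and Pole3 one of 0.07, against -0.33 for Pole. Pole4 had one of 0.29 (adjusted p = 0.419 from limma) with overlapping groups. In polymerase alpha-primase, Pola2 had a difference of 0.19 and Prim2 one of -0.00, beside -0.22 for Pola1. The polymerase delta subunits Pold2, Pold3 and Pold4 had differences of 0.12, -0.16 and -0.06. Dbf4, the activating subunit of the Cdc7 kinase, was higher in all 3 Fancg-/- samples (difference 0.23, adjusted p = 0.333 from limma), beside -0.11 for Cdc7 itself. Rrm2b, the p53-regulated small subunit of ribonucleotide reductase, had a difference of -0.19 with a standard error of 0.21, beside 0.43 for Rrm2. Lig1, the ligase that joins Okazaki fragments, had a difference of -0.11. The other activator E2F genes, E2f2 and E2f3, had differences of 0.34 and 0.13.

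**Figure D3:**
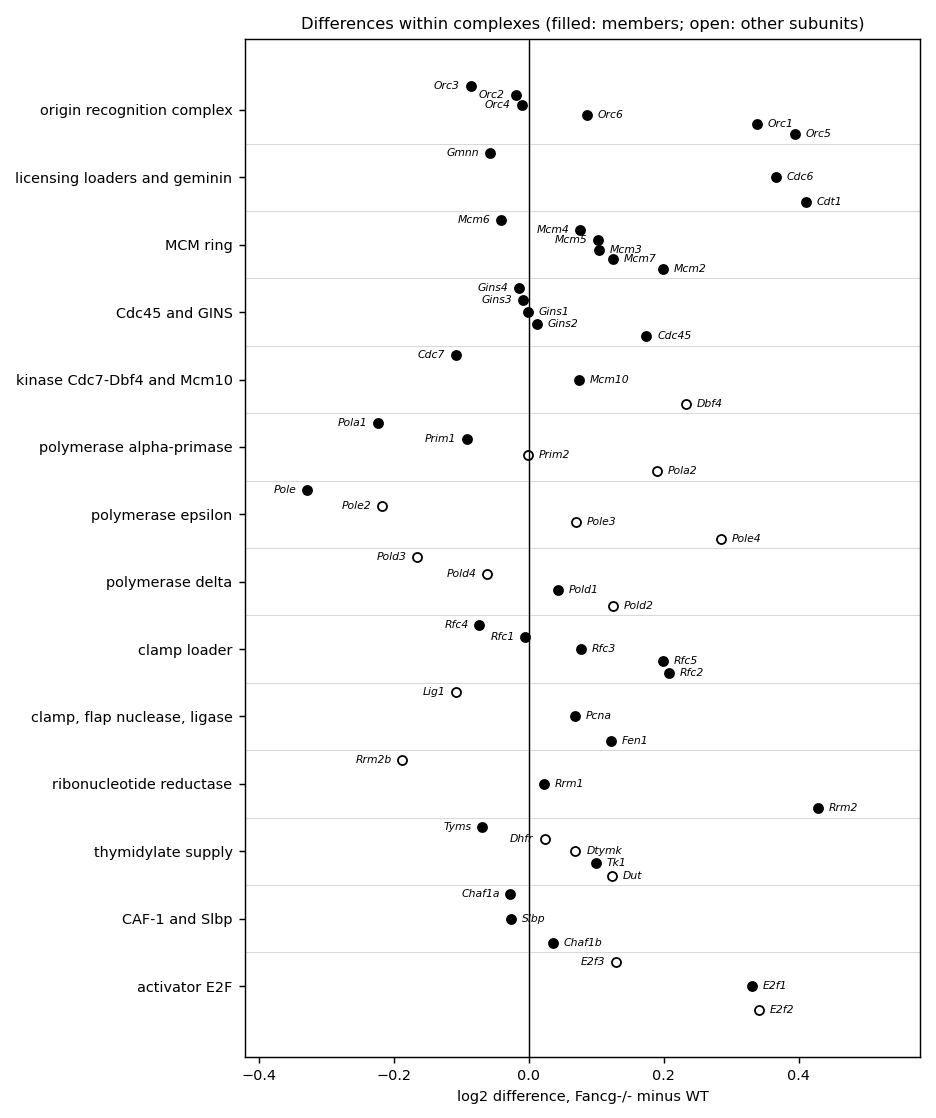
Log2 difference between Fancg-/- and WT samples (horizontal axis) for the subunits of 14 complexes or functional groups down the page; filled points are members, open points are subunits outside the 41 genes, and the height within a band only separates points. The GINS and CAF-1 genes lie near 0 and the MCM ring between -0.04 and 0.20, and the subunits of polymerase epsilon and of ribonucleotide reductase span the widest ranges, 0.61 and 0.62.

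A further 75 genes of replication and S phase, in 5 lists, were read in the same way. None was called at an adjusted p under 0.05 by limma, and the median difference of the 75 genes was 0.02. At an unadjusted p under 0.05 there were 8 with higher signals (10.7%, against 6.23% of all genes) and 3 with lower signals (4.0%, against 6.17%). Among 25 other replisome subunits (2 higher, 0 lower, median 0.00), Rpa3, a subunit of the single-strand binding protein RPA, had a difference of 0.27 and the fork protection gene Timeless one of 0.21. Among 12 other licensing and firing factors (2 higher, 1 lower, median -0.03), the ORC-associated gene Lrwd1 had a difference of 0.27, and Mcm9, a helicase of DNA repair, one of -0.51. Among 14 other genes of nucleotide supply (1 higher, 1 lower, median 0.08), the folate enzyme gene Mthfd1 had a difference of 0.33 and the purine gene Paics one of 0.18. Impdh2, of guanine nucleotide synthesis, had one of -0.36. Among 16 other genes of E2F and G1/S control (3 higher, 0 lower, median 0.08), Ccne1, the cyclin that drives entry into S phase, had the smallest adjusted p of the 5 lists. Its log2 signals were 8.23, 8.22 and 8.19 in Fancg-/- samples and 7.80, 7.73 and 7.58 in WT samples, a difference of 0.50 (95% interval 0.29 to 0.72, adjusted p = 0.153 from limma). In the same list, Fbxo5, an inhibitor of the anaphase-promoting complex, had a difference of 0.24 and E2f4 one of 0.23. Among 8 replication-coupled chromatin factors (0 higher, 1 lower, median -0.04), Uhrf1, which guides maintenance of DNA methylation, had a difference of -0.52 (adjusted p = 0.215 from limma). Asf1b, a histone chaperone, had one of 0.20, and Npat, an activator of histone genes, one of -0.11. The neighbouring list of 30 G2 and mitosis genes had 2 higher and 0 lower at that p and a median of 0.06, with Aurka at 0.23, Tpx2 at 0.22 and Mad2l1 at 0.20.

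The members varied together from sample to sample within each group. For each gene, the mean over all 6 samples was subtracted, and the members were then averaged. The resulting levels were -0.02, 0.07 and 0.05 in the 3 Fancg-/- samples and 0.03, -0.09 and -0.05 in the 3 WT samples, so that WT replicate 1 lay above Fancg-/- replicate 1. The difference of the group means was 0.07 and the spread within groups 0.06 (SD). Fancg-/- replicate 1 was the lowest of its group for 26 of 41 members (63.4%, against 34.4% of all genes), and replicate 2 the highest for 22 (53.7%, against 30.9%). WT replicate 1 was the highest of its group for 29 members (70.7%, against 37.0%), and replicate 2 the lowest for 28 (68.3%, against 33.4%). The licensing class followed the same order, with levels of -0.01, 0.12 and 0.09 in Fancg-/- samples and 0.02, -0.15 and -0.07 in WT samples. The polymerase class was the 1 class of the 6 whose levels did not overlap, at -0.09, -0.05 and -0.08 in Fancg-/- samples and 0.14, 0.08 and 0.00 in WT samples. The list of other replication-coupled chromatin factors was also lower without overlap. Its levels were -0.04, -0.03 and -0.03 in Fancg-/- samples and 0.06, -0.02 and 0.06 in WT samples. Over the members without the 7 at an unadjusted p under 0.05, the difference of the group means was 0.03.

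**Figure D4:**
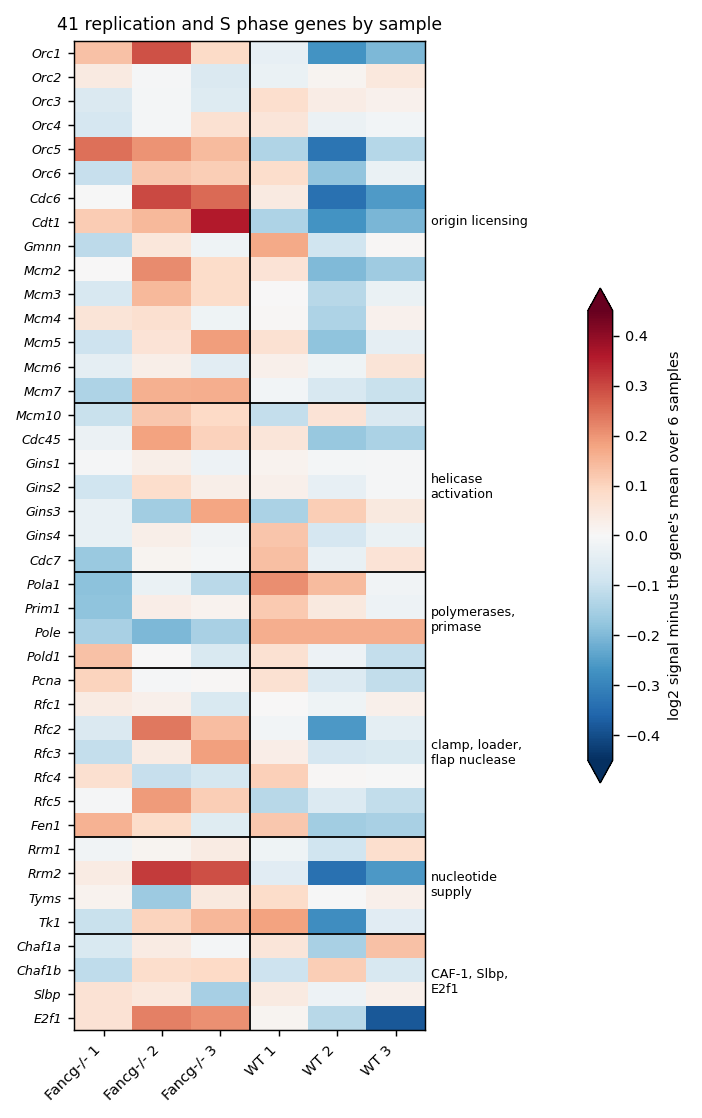
Log2 signal of each of the 41 members (down the page, by class) in each of 3 Fancg-/- and 3 WT samples (left to right), minus the gene's mean over the 6 samples; red is higher and blue is lower. Many members are at their lowest within the group in Fancg-/- replicate 1 and in WT replicate 2, and the row of Pole is blue in all Fancg-/- samples and red in all WT samples.

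Markers of other gonad cells were read beside the replication genes, and limma called none of them at an adjusted p under 0.05 (smallest 0.114). In bulk samples, fewer cells of a type and less RNA per cell cannot be told apart. All 5 fetal Leydig cell markers measured had lower signals in Fancg-/- samples at an unadjusted p under 0.05 and did not overlap between the groups, with a median difference of -1.55. Their summed linear signal was 86.8 to 152 in Fancg-/- samples and 308 to 480 in WT samples. The steroid enzyme gene Cyp17a1 had log2 signals of 4.88, 4.20 and 5.65 in Fancg-/- samples and of 6.80, 7.42 and 7.54 in WT samples (adjusted p = 0.141 from limma). Of 13 Sertoli cell markers, 11 had a difference below 0 (2 of them at an unadjusted p under 0.05) with a median of -0.46. The sums were 1827 to 2618 in Fancg-/- samples and 2852 to 3994 in WT samples. The mean log2 levels of this list overlapped, at -0.12, -0.50 and 0.03 in Fancg-/- samples and -0.10, 0.17 and 0.52 in WT samples. The Sertoli markers Sox9 and Amh had differences of -0.60 and -0.54 with overlapping groups. Of 9 stroma markers, 4 were lower at an unadjusted p under 0.05 and 0 were higher, with a median of -0.23 and sums of 355 to 428 in Fancg-/- samples and 391.5 to 532 in WT samples. Endothelial markers went the other way: all 10 had a difference above 0 (5 of them at an unadjusted p under 0.05), with a median of 0.34. The sums were 1066 to 1419 in Fancg-/- samples and 887 to 1158 in WT samples. Pecam1, which PGCs also express, had a difference of 0.38 in that list.

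Of 16 germ cell markers, 2 had higher and 2 had lower signals at an unadjusted p below 0.05. Over all genes, 6.23% were higher and 6.17% lower at that p. The groups did not overlap for 5 markers that were higher (31.2%, against 9.45% of all genes) and 3 that were lower (18.8%, against 8.45%). The 16 markers had a median of 0.04 and ran from -1.90 for Nanos2, a gene of male germ cell differentiation, to 0.56 for Tfap2c, an early PGC factor. The mean level of this list was -0.02, -0.02 and -0.04 in Fancg-/- samples and 0.02, 0.09 and -0.02 in WT samples, with each Fancg-/- value just below the lowest WT value. This mean includes Nanos2 at -1.90, while 8 of the 16 markers had a difference above 0 and 8 one below. The level without Nanos2 was not computed. The sums were 15870 to 16090 in Fancg-/- samples and 16030 to 16210 in WT samples. The 8 macrophage markers (1 higher, 1 lower, median 0.06) had sums of 213 to 238 in Fancg-/- samples and 241 to 256 in WT samples, which did not overlap. The mean log2 levels of this list did overlap, at -0.016, -0.011 and 0.016 in Fancg-/- samples and 0.068, -0.056 and -0.001 in WT samples. Ptprc, the pan-leukocyte gene, had log2 signals of 2.67 to 2.85 over the 6 samples. The 7 erythroid genes measured (0 higher, 1 lower, median 0.02) had sums of 82.8 to 1479 in Fancg-/- samples and 123 to 530 in WT samples. The 8 immediate-early genes of cell handling (0 higher, 0 lower, median -0.19) had sums of 1802 to 2405 in Fancg-/- samples and 1576 to 2758 in WT samples.

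**Figure D5:**
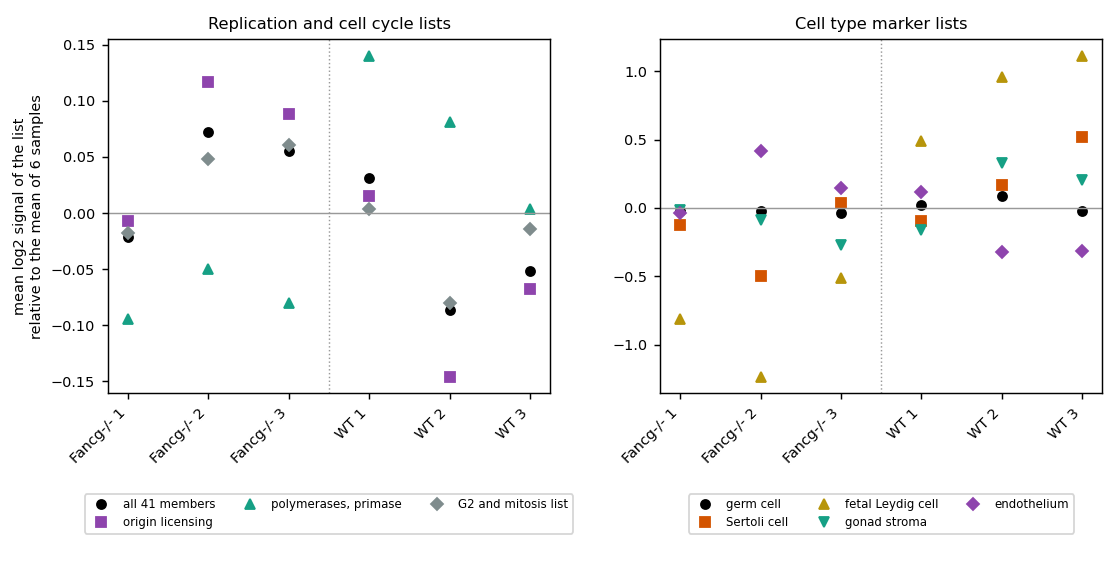
Mean log2 signal of a gene list in each sample relative to its mean over the 6 samples (vertical axes, of different range), for replication and cell cycle lists (left panel) and cell type markers (right panel); each point is 1 sample. The level of the 41 members overlaps between Fancg-/- and WT samples, that of the polymerase class does not, and the fetal Leydig cell markers lie between -1.24 and -0.51 in Fancg-/- samples and between 0.49 and 1.12 in WT samples.

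The somatic markers and the replication genes were set side by side in each sample. The mean level of the Sertoli, Leydig and stroma lists, called the somatic level here, was -0.21, -0.50 and -0.17 in the 3 Fancg-/- samples. In the 3 WT samples it was -0.01, 0.37 and 0.52. Fancg-/- replicate 2 was thus the lowest and WT replicate 1 the lowest of the WT samples. The endothelial list is not part of this level and went the other way, with overlapping groups. Its levels were -0.04, 0.42 and 0.15 in Fancg-/- samples and 0.11, -0.32 and -0.32 in WT samples. Within each group, the sample with the lowest somatic level was the one in which most members were highest. The other end did not match: the somatic level was highest in replicate 3 of both groups. Most members were lowest in Fancg-/- replicate 1 and in WT replicate 2. With the somatic level as a covariate in limma, 1 of 41 members had an unadjusted p under 0.05, against 1402 of all 23837 genes. The member was Pola1 with a difference of -0.44 (standard error 0.16, adjusted p = 0.809 from limma). Of the 7 members at that p without the covariate, 3 had a difference of nearly the same size with it and 4 had a smaller one. Cdt1 had a difference of 0.41 (standard error 0.19), Orc5 of 0.35 (0.18) and Pole of -0.30 (0.15). Rrm2 had one of 0.17 (0.20), Orc1 of 0.09 (0.16), Cdc6 of 0.03 (0.21) and E2f1 of 0.01 (0.18). Without the covariate the standard errors of these 7 lay between 0.08 and 0.13. The somatic level did not overlap between the groups, although the Sertoli and stroma lists on their own did. The part of somatic RNA in these differences cannot be told apart from that of the genotype.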

How the data were processed

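The authors sorted PGCs by GFP, amplified 500 pg of total RNA per sample and hybridised 6 arrays. They deposited log2 values made by RMA with 1 row per Entrez gene, and the submitters' processing notes name Partek. Their versions are not given, nor is a genome build, in the sources used here. RMA subtracts background and quantile normalizes the probes across arrays, and differences of dim genes are reduced by it. A RefSeq table (GRCm38.p6) gave names to 23712 of 24479 rows and the platform annotation to 125 more; 642 rows had no name and were not tested. The table has no per-sample column outside these 6 samples. Replicates are separate pools by the paper's methods, and p-values measure the spread between these pools.

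Each gene was fitted with limma 3.58.1 under R 4.3.3, by lmFit and eBayes, as Fancg-/- minus WT, with Benjamini-Hochberg adjustment over the 23837 named genes and a call at an adjusted p under 0.05. Intervals are limma's 95% intervals. The procedure was tested on simulated data. The study's methods name a t-test, which was run as an alternative. No set of genes was tested: lists are described by counts and medians. Summaries were made with Python 3.11.15, pandas 2.3.3 and numpy 2.4.6, and figures with matplotlib 3.10.9. The members and all lists were chosen with earlier results of these data known. The 20 lists are 6 classes of the members, 5 lists of other replication genes, 1 list of G2 and mitosis genes and 8 marker lists. Of the marker genes, 4 were not matched (1 of fetal Leydig cells, 3 erythroid).

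Every sample's value is given for members with an unadjusted p under 0.05 and for the members with the largest and the smallest difference of each class; those of Pola1 and Rfc5 were added after their values were seen, as were the names of Nanos2 and Tfap2c. In lists of other genes, up to 3 genes of the smallest p are named, beside defining markers and subunits of the members' complexes. Promoters were searched for exact words in the RefSeq windows, and 7 members without a window are named only. A planned search of protein sequences was not run. Alternatives were the methods' t-test, array weights, eBayes with trend and robust options, arrays set to equal medians or quantile normalized again, removal of the dimmest 25% or 50% of genes, unnamed rows included, the replicate number as a block, a somatic covariate (the mean of the Sertoli, Leydig and stroma lists) and leaving out each sample.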

Additional observations from a re-analysis of the deposited data

How the results depend on the processing

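No member was called by limma at an adjusted p under 0.05 under any of the 16 alternatives, and over all genes the number called was 0 in all of them but 1 (without WT replicate 1 it was 3; range when samples were left out 0 to 3). The number of members with an unadjusted p under 0.05, 7 as reported, was 5 to 10 when samples were left out and 6 to 10 under the other alternatives except the somatic covariate, where it was 1. Orc1, Orc5, Cdt1, Pole and Rrm2 were under 0.05 in 15 of 16 alternatives, E2f1 in 11 and Cdc6 in 9. The lowest adjusted p of a member under an alternative was 0.0825, for Pole.

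The somatic covariate moved most summaries. With it, 1402 genes had an unadjusted p under 0.05, against 2956 without it. The median difference was -0.0431 over the members, -0.0078 for licensing, -0.0658 for helicase activation, -0.2714 for the polymerases and -0.0235 for the clamp class. Among the lists of other genes it was -0.0656 for replisome subunits, -0.0485 for nucleotide supply and -0.0908 for chromatin factors. When samples were left out, the median of all members ran between 0.025 (without WT replicate 2) and 0.0588 (without Fancg-/- replicate 1), and that of licensing between 0.0367 and 0.1644 (the same samples). The polymerase median ran between -0.2065 (without WT replicate 3) and -0.1045 (without Fancg-/- replicate 1), that of nucleotide supply between -0.0161 (without WT replicate 2) and 0.116 (without WT replicate 1), and that of the clamp class between 0.059 and 0.1193 (the same samples). The medians of helicase activation (-0.0147 to 0.0261) and of the CAF-1, Slbp and E2f1 class (-0.0238 to 0.0507) crossed 0.

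In 22 of 41 members, none with a difference over 0.20 in size, the sign turned under some alternative, and in 19 it did not. With the covariate these were Orc2 (0.0302), Orc6 (-0.0873), Mcm2 (-0.0836), Mcm3 (-0.0108), Mcm5 (-0.0075), Mcm7 (-0.0078), Cdc45 (-0.0658), Gins2 (-0.0716), Gins3 (0.3033), Pold1 (-0.0848), Pcna (-0.0431), Fen1 (-0.1353) and Tk1 (-0.1671). With equal array medians, which moved the median of all genes to 0.0324, they were Orc2 (0.0021), Orc4 (0.0110), Gins1 (0.0203), Gins3 (0.0132), Gins4 (0.0072) and Rfc1 (0.0165). With array weights they were Orc4 (0.0010), Gins1 (0.0048) and Gins4 (0.0075), and with quantile normalization Gins3 (0.0079). The cause was not tested.

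When samples were left out, the sign turned for 14 members. The differences ran between -0.045 and 0.008 for Orc2, -0.0479 and 0.0254 for Orc4, -0.1166 and 0.0123 for Gmnn, -0.0147 and 0.0104 for Gins1, and -0.0248 and 0.0588 for Gins2. They ran between -0.0993 and 0.0686 for Gins3, -0.0556 and 0.0452 for Gins4, -0.0127 and 0.0883 for Pold1, -0.0248 and 0.0282 for Rfc1, and -0.0168 and 0.0654 for Rrm1. For Tk1 the limits were -0.0154 and 0.2147, for Chaf1a -0.1073 and 0.0326, for Chaf1b -0.0031 and 0.1018, and for Slbp -0.065 and 0.0419.

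The samples of both groups carry the numbers 1 to 3. For same-numbered samples, the correlations of their deviations from the group means over all genes were -0.143, -0.110 and 0.030. The sources used here do not say whether equal numbers share a litter or day. These correlations cannot decide it, because the deviations of the 3 samples of a group sum to 0. With the replicate number as a block, 0 genes were called, 2480 genes and 6 members had an unadjusted p under 0.05, and no other call changed. Fancg-/- replicate 1 correlated best with WT replicate 2 (0.143) and Fancg-/- replicate 2 with WT replicate 1 (0.145), and the samples numbered 3 with each other.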
